A study of Mus musculus with 3 samples.

Results

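The genes described here are the homeobox, Sox, Fox, Gata, T-box, POU, Pax and Zic genes, families of transcription factors that lay down the body plan and cell types of the embryo. They were chosen by the first letters of their mouse gene symbols, with no use of their signals, and comprise 143 of the 8251 genes named on the array, read by 188 of 10833 probe sets that carry 1 gene symbol. RNA came from hippocampal CA1 of young male mice of the inbred strain C57BL/6J. Every animal had been through contextual fear conditioning, in which a mouse stayed 2 min in a new chamber before a foot shock of 1 s at 0.5 mA, for 3 shocks in all, and went back to its home cage 1 min later. RNA was taken 6 h after the last shock and hybridised to 3 short-oligonucleotide arrays of the Affymetrix type. All 3 arrays belong to this 1 group, no unconditioned mice were analysed here, and no gene below can be called induced or repressed by training. Whether each array carried RNA of 1 mouse or of a pool is not stated in the labels, so p-values measure only the spread between these arrays, which may be partly technical.

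These factors bind DNA through conserved domains. Homeobox proteins use the homeodomain, which Hox, Lhx, Dlx, Nkx, POU, Meis and Pbx proteins have, Sox proteins use an HMG box, Fox proteins a forkhead domain, Gata and Zic proteins zinc fingers, and T-box proteins a domain of their own. In the embryo they divide the neural tube into regions. In the adult brain some stay on as identity factors of a cell class, such as Sox10 in oligodendrocytes, Lhx6 in interneurons and Foxj1 in ciliated ependymal cells, while Hox genes mark hindbrain and spinal cord and are largely silent in the forebrain.

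Signals are the deposited intensities on a linear scale, and a signal over 175, the median of all deposited values, is called above threshold. The brightest probe set by mean stands for a gene with several. A signal depends on the probes as well as on the transcript, so signals of different genes were not ranked against each other, and a signal under threshold does not show that a transcript was missing. In bulk tissue, fewer cells of a type and less RNA per cell cannot be told apart.

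The developmental factors were above threshold less often than the array as a whole. On all 3 arrays, 26 of the 143 genes (18.2%) were above threshold, against 52.9% of all named genes. On all 3 arrays, 90 (62.9%) were under it, against 34.7% of all named genes, and 27 passed on 1 or 2 arrays. The 90 genes under threshold had signals from 3.7 to 174, and their means had a median of 51.9. The shares above threshold on all arrays were highest in small groups: 2 of 3 oligodendrocyte lineage factors (Sox10, Nkx6-2), 5 of 9 Fox factors of signalling and the cell cycle (Foxo3, Foxo4, Foxk2, Foxm1, Foxp1) and 2 of 4 among Sox4, Sox5, Sox11 and Sox13. They were low in the larger groups listed under other parts of the body: 2 of 32 Hox genes, 1 of 19 factors of thalamus, midbrain, hindbrain and spinal cord, and 2 of 26 factors of organs outside the brain. The small pallial and Zic groups had 0 of 3 each. Genes were placed in groups by fixed lists, and a group name need not fit every member, such as Six3 in the pallial group. With probe sets of the plain suffix alone, 21 of 133 genes (15.8%) passed, against 51.1% of all genes with such a probe set. The genes nearest the threshold were Tbx6 and Hoxc5, with means of 175 and 173 just under it, and Dlx2 and Pax3, with means of 177 and 177 just over it.

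**Figure D1:**
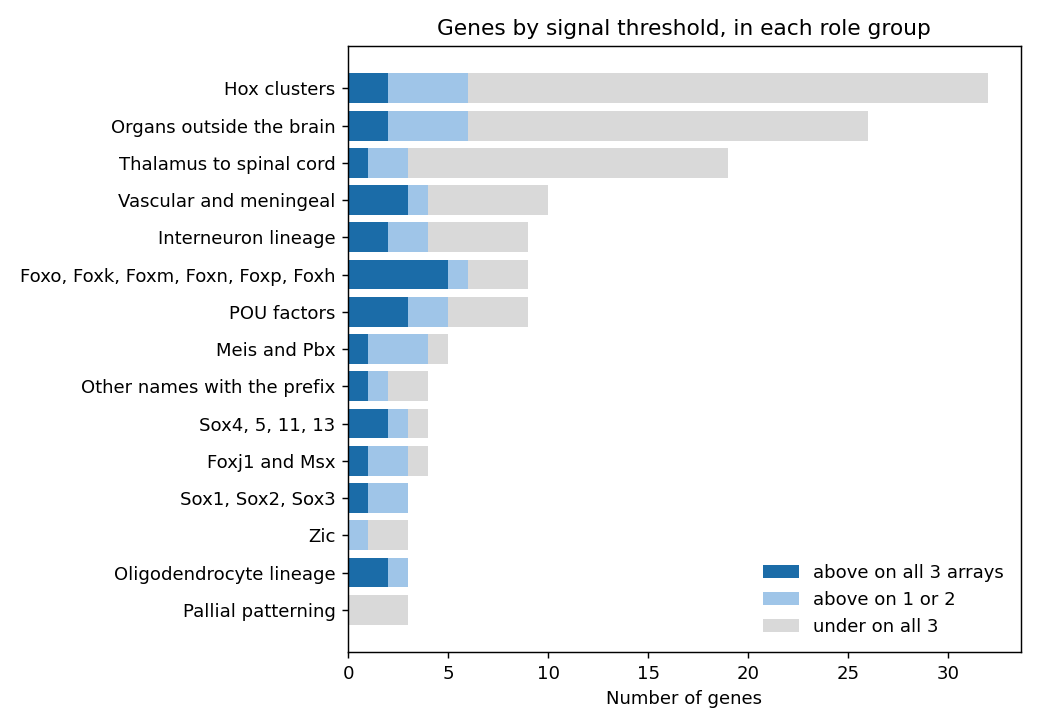
Number of genes (horizontal axis) in each role group, split by whether the signal was above 175 on all 3 arrays, on 1 or 2, or on 0. The Hox bar holds 32 genes of which 2 passed on all arrays, and the bar of oligodendrocyte lineage factors holds 3 genes of which 2 did.

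The tissue label was checked against CA1 markers, and 4 of 4, Wfs1, Dcn, Man1a and the POU gene Pou3f1, exceeded the threshold on every array. Of all named genes 52.9% did so, and a check on 4 genes is weak. The other 6 markers of that list were not analysed here. The check does not set CA1 apart from its neighbours, since 2 of 4 dentate and 5 of 8 thalamus and habenula markers passed too. Summed over markers outside the families, choroid plexus and ependyma signal was 3566, 7073 and 2194 on arrays 1, 2 and 3, and meningeal and fibroblast signal was 12920, 8749 and 8080. Most of the spread of the meningeal and fibroblast sum lay in Ptgds, which gave 8807.9, 4634.5 and 4726.3. Of the 6 genes of that list with a mean above threshold, 4 were highest on array 1. The other 2 were highest on array 2: Igfbp2 gave 386, 1002 and 258, and Slc6a13 gave 218, 455 and 402. Interneuron markers summed to 36077, 36640 and 43699, and oligodendrocyte markers to 23293, 24651 and 23500. Gapdh probe sets at the 3' end exceeded those at the 5' end by a ratio, a measure of RNA integrity and labelling, of 3.99, 1.21 and 3.94. The same ratio for Actb was 2.570, 1.857 and 3.503. Both ratios were lowest on array 2, but that of Actb was clearly higher on array 3 than on array 1. All 15 control probe sets for bacterial transcripts stayed under threshold on every array. The part of tissue makeup and RNA quality in the spreads below was not tested.

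Hox genes, which specify position along the trunk and hindbrain, were under threshold apart from a few probe sets. Of 32 Hox names, 31 for proteins and 1 for the antisense RNA Hoxa11os, 26 were under threshold on all 3 arrays, with signals from 4.0 to 172. In the Hoxa cluster these were Hoxa2, Hoxa3, Hoxa5, Hoxa6, Hoxa7, Hoxa9, Hoxa10, Hoxa11, Hoxa11os and Hoxa13. In the Hoxb cluster they were Hoxb1, Hoxb3, Hoxb4, Hoxb5, Hoxb6, Hoxb9 and Hoxb13. In the other clusters they were Hoxc4, Hoxc6, Hoxc8, Hoxc9, Hoxd1, Hoxd10, Hoxd11, Hoxd12 and Hoxd13.

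The Hox genes above threshold on all arrays were Hoxa4 and Hoxb8, and each rested on a probe set whose name ends in r, a suffix that marks probes picked with some of the design rules dropped. Hoxa4 gave 1085, 1064 and 1044 on arrays 1, 2 and 3 with that probe set. Its other 3 probe sets gave 102, 101 and 117, then 50.4, 146 and 40.5, then 4.0, 6.9 and 3.8. All 3 stayed under threshold on every array. Hoxb8 gave 378, 413 and 389 with its r probe set and 85.6, 24.1 and 18.9 with the other. Among the 28 Hox genes with a plain-suffix probe set, 0 passed on all arrays, and 4 passed on 1 or 2. Hoxb7 gave 270, 142 and 234, lowest on array 2. Hoxc5 gave 183, 101 and 234, also lowest on array 2. Hoxd8 gave 175, 170 and 161, and Hoxd9 gave 213, 62.4 and 47.2, high on array 1 alone. Of Hox probe sets with the r suffix 2 of 4 were above threshold on all arrays, against 0 of 29 with the plain suffix. Over all named probe sets the shares were 26.1% for the r suffix and 48.0% for the plain one. The part of probe design in the Hoxa4 and Hoxb8 signals was not tested.

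**Figure D2:**
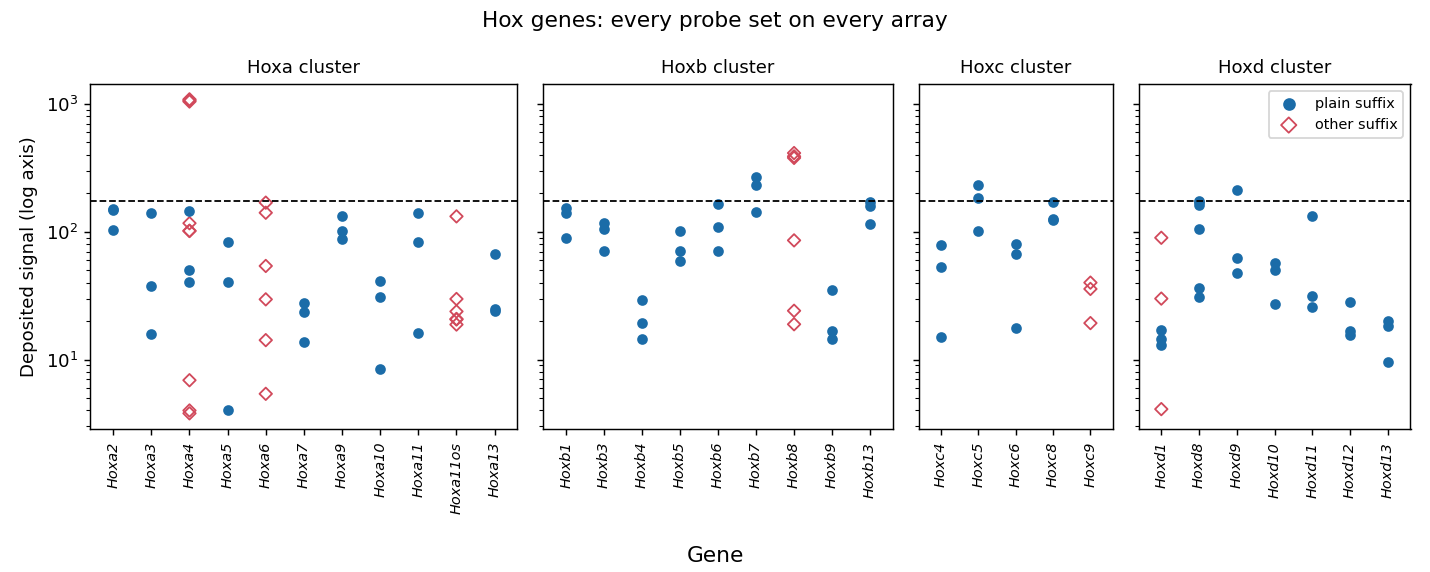
Deposited signal on a log axis for each of the 40 Hox probe sets, 3 points per probe set for the 3 arrays, with genes in cluster order along the horizontal axis and the threshold of 175 dashed. Filled circles (plain suffix) lie under or near the line, up to 270 for Hoxb7, and the points at 378 or more for Hoxa4 and Hoxb8 are open diamonds (other suffixes).

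Genes of the pallial patterning list with a probe set were under threshold. Pax6, a factor of neural progenitors that the developing cortex and hippocampus need, gave 75, 149 and 105. Lhx5, a LIM factor of the hippocampal primordium, gave 50.1, 31.4 and 18.1, and the forebrain factor Six3 gave 21.7, 17.8 and 26.1. Emx1, Emx2, Lhx2 and Otx1, which pattern the embryonic pallium, were not analysed here.

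POU factors included one CA1 identity gene and one with a wide range. Pou3f1, a POU factor enriched in CA1 pyramidal neurons, gave 557, 720 and 460 (579 ± 132, SD, n = 3), above threshold throughout and highest on array 2. Pou3f3, a relative with roles in cortical and hippocampal neuron production, gave 176, 365 and 84.5, again highest on array 2 and lowest on array 3, where it was under threshold. Pou6f1, expressed widely in adult brain, gave 1127, 805 and 1012 with its brightest probe set, while the others gave 22.2, 186 and 105, and 48.4, 97.3 and 48.9. Pou2f3, best known from skin and taste-bud cells, gave 193, 303 and 325. Pou2f2, a lymphoid factor, gave 30.2, 200.1 and 37.0, with array 2 alone above threshold. Pou3f2, Pou3f4, Pou5f1, a factor of pluripotent cells, and Pou2af1, which encodes a coactivator of POU factors and no POU protein, were under threshold on all arrays, between 9.1 and 115.

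Interneuron lineage factors were measured in part. Lhx6, needed for interneurons born in the medial ganglionic eminence, gave 428, 560 and 431 (473 ± 75.4, n = 3), with array 2 above the others. Dlx1, a homeobox gene of the ganglionic eminences kept in adult interneurons, gave 433, 216 and 361, with array 2 lowest. Dlx2, its neighbour in the genome, gave 203, 142 and 186. Dlx5 gave 179, 95.8 and 217, and passed on arrays 1 and 3. All 3 of these Dlx genes were thus lowest on array 2, the array on which Lhx6 was highest. Of 10 interneuron markers outside the families 8 were above threshold on all arrays and 1 was under it on all, and their sum was highest on array 3. Gad1, which encodes a GABA-synthesising enzyme, gave 3825, 3854 and 4792, and Gad2, the other such gene, gave 150, 109 and 95.3. The part of interneuron content in the Dlx and Lhx6 signals was not tested. Dlx3, Dlx4, Dlx6, Lhx8 and Sox6 were under threshold on all arrays, from 12.1 to 149. The list for this group took in Dlx genes as a family, and Dlx3 and Dlx4 are not used here as interneuron genes. The antisense RNA Dlx1as gave 102, 36.6 and 153, and Dlx6os2 gave 124, 180 and 54.1 with its brighter probe set.

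Sox factors were above threshold on all arrays for 6 of 13 genes (46.2%), near the 52.9% of all named genes. Sox2, a factor of neural stem cells also found in astrocytes, gave 968, 1055 and 1602 (1208 ± 343, n = 3), highest on array 3, and it too was read by an r probe set alone. Its relatives passed on 1 or 2 arrays: Sox3 gave 241, 164 and 230 with an r probe set and stayed between 18.4 and 55.7 with 3 others, and Sox1 gave 204, 101 and 117. Sox4, a factor of young neurons, gave 739, 779 and 693. Its dimmer probe set read 239, 161 and 176. Sox13 gave 689, 587 and 850. Sox11, which like Sox4 belongs to the SoxC class and marks newborn neurons, gave 337, 462 and 146, lowest on array 3. The dimmer Sox11 probe set gave 52.3, 51.3 and 5.3, under threshold throughout and without the peak on array 2. Sox5 was under threshold, from 59.5 to 85.2.

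Pou3f3, Sox11 and Foxj1 were highest on array 2, lowest on array 3 and over 2-fold apart, and upstream sequences are shown for Pou3f3 and Sox11. That order of arrays was no more frequent among the measured genes of the families (18.4%) than among all measured genes (18.7%). Each run is the 250 bases before the RefSeq start site in the GRCm38.p6 build, and capitals mark CCAAT, or ATTGG where it lies on the other strand. Pou3f3 lies on the plus strand at chr1:42695518-42695767, and Sox11 on the minus strand at chr12:27342719-27342968.
Pou3f3: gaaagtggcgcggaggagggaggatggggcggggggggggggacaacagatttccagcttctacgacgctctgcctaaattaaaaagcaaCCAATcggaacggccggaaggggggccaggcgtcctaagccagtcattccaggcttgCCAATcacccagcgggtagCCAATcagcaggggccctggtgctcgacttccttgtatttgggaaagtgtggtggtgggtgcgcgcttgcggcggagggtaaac
Sox11: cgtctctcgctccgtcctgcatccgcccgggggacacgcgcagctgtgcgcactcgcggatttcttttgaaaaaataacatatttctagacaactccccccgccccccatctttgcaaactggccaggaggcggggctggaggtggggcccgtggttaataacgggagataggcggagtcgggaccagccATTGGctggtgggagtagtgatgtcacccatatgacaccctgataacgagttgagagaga
The Pou3f3 window held 3 such motifs and 15 CpG pairs, and the Sox11 window held 1 motif and 17 CpG pairs.

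Upstream windows were matched by symbol for 96 of the 143 genes, taking the first window listed for a gene, 250 bases before to 50 after the start. CCAAT on either strand was present in 52 of 96 (54.2%), against 38.3% of 6577 genes named on the array and 37.9% of all 27025 genes in the table. The palindromic homeodomain core TAATTA was in 4 of 96 (4.17%), against 2.92% of genes on the array. The core promoter motif TATAAA, on either strand, was in 9 (9.38%), against 10.4%. CCAAT was picked for the display of sequences after these shares were seen. GC content had a median of 60.3%, against 60.0% on the array. The ratio of observed to expected CpG had a median of 0.79 in the 15 matched genes above threshold on all arrays, 0.62 in the 65 under it on all arrays and 0.72 over the genes of the array. These are descriptions of letters in a window, and neither a match nor its lack says whether a factor binds there. Motifs may share letters, and each was searched on its own.

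Oligodendrocyte lineage factors stood above or near threshold on each array. Sox10, which drives myelin gene expression, gave 979, 882 and 962 (941 ± 51.8, n = 3) with its brighter probe set and 87.8, 62.2 and 221 with the other. The arrays lay within 1.13-fold of each other for the brighter one. Nkx6-2, a homeobox gene of myelinating cells, gave 272, 229 and 193. Nkx2-2, a factor of oligodendrocyte precursors, gave 167, 214 and 187, under threshold on array 1.

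Fox factors that respond to signalling or the cell cycle passed in 5 of 9 genes (55.6%), near the 52.9% of all named genes. Foxo4 and Foxo3, which insulin signalling keeps out of the nucleus, gave 1150, 1125 and 1164, and 614, 487 and 574. Foxk2 gave 853, 681 and 753 with one probe set and 48.4, 28.4 and 16.6 with the other. Foxp1, found in CA1 and cortical neurons, gave 534, 317 and 677, lowest on array 2, but its second probe set gave 320, 603 and 446, highest there. The arrays' order for Foxp1 thus turned with the probe set. Foxm1, a factor of dividing cells, gave 212, 199 and 486 with a probe set of the g suffix, which marks probes shared with a related set, and 22.1, 18.5 and 31.9 with the plain one. Foxk1 gave 58.0, 175 and 60.2, and Foxn2, Foxn3 and Foxh1 were under threshold on all arrays.

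**Figure D3:**
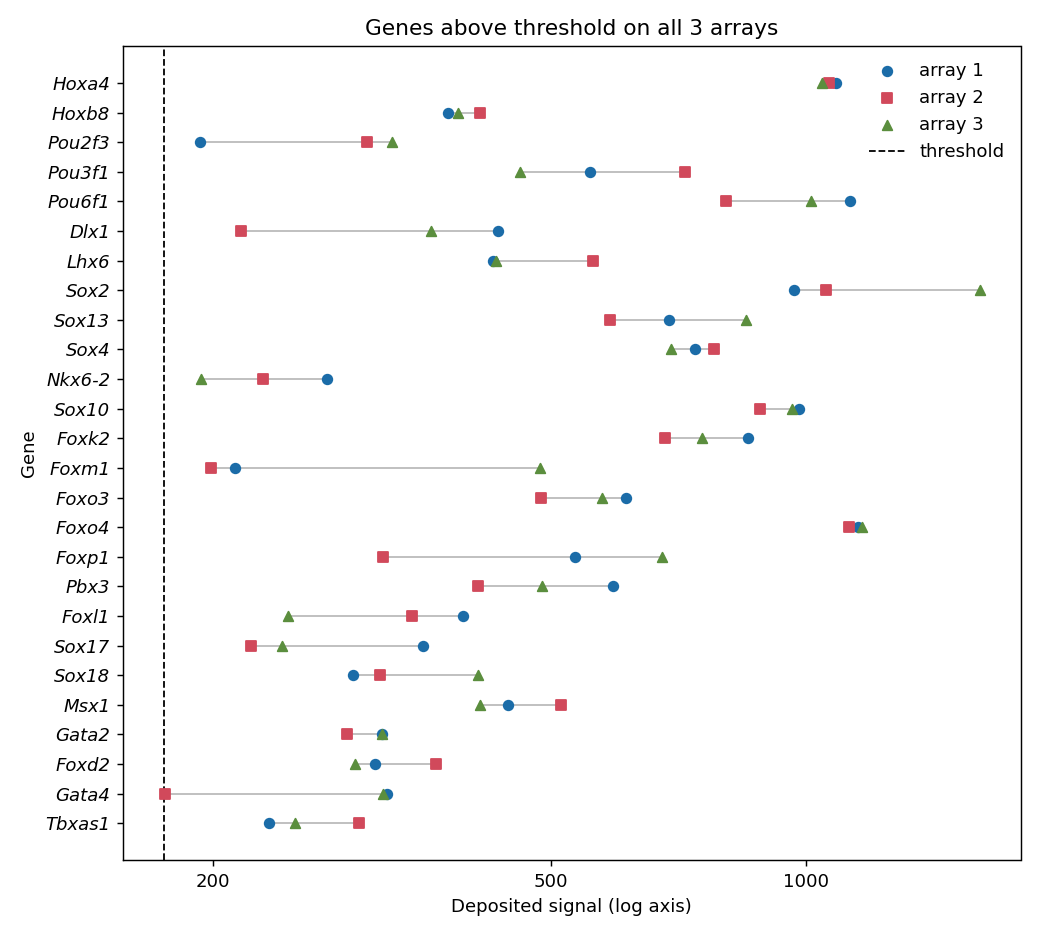
Deposited signal on a log axis of the 26 genes above 175 on all 3 arrays, 1 row per gene, with the 3 arrays as points joined by a line from lowest to highest and the threshold dashed. The lines of Foxo4 and Hoxa4 are short, whereas those of Foxm1, Foxp1 and Dlx1 span more than 2-fold.

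Meis and Pbx proteins, cofactors that bind DNA beside Hox and other homeobox proteins, passed for 1 of 5 genes. Pbx3 gave 592, 410 and 488 with its brightest probe set, 281, 186 and 163 with the second and 180, 211 and 93.4 with the third. Meis2, which marks olfactory interneurons, gave 193, 76.3 and 220, lowest on array 2. Pbx2 gave 69.4, 215 and 104, and Meis3 146, 180 and 87.7, each above threshold on array 2 alone. Meis1 was under threshold, from 7.7 to 49.8. Zic2, a zinc-finger factor of the dorsal midline, gave 85.5, 256 and 128, while Zic1 and Zic4 were under threshold on all arrays.

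Vascular and meningeal factors passed in 3 of 10 genes. Sox17 and Sox18, which specify endothelial cells, gave 354, 222 and 241, and 292, 315 and 410. The second probe set of Sox18 also passed on each array, at 273, 314 and 254, and that of Sox17 gave 31.9, 37.8 and 22.8. Sox7, the third of that class, gave 112, 269 and 164, with array 2 alone above threshold. Cldn5, the tight-junction gene of brain endothelium, gave 310, 304 and 540. Foxl1, a mesenchymal factor, gave 394, 343 and 245. Foxc1, which meningeal cells need, gave 46.3, 3.7 and 5.4, and Foxc2, Foxd1, Foxf1, Foxf2 and Foxq1 were likewise under threshold.

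Foxj1, the master gene of motile cilia in ependyma and choroid plexus, gave 313, 508 and 166 and was highest on array 2. Choroid plexus and ependyma markers outside the families had the same order in sum, at 3566, 7073 and 2194. Of these 5 genes, 2 passed on every array and 1 was under throughout. The transthyretin gene Ttr gave 1334, 4257 and 94.2 and held most of the spread of the sum. It was the 1 measured probe set past the limma variance test, at an adjusted p of 0.049, a call lost with a prior that is not robust, where the limma adjusted p was 0.051. The number past the test was also 0 with quantile normalization and without array 2, and 44 without array 3. Folr1, a choroid plexus marker, gave 54.5, 196 and 39.9, and Igf2 gave 1765, 2198 and 1582, both in the order of Foxj1. The others had another order: Aqp1, a water channel gene, gave 160, 55.2 and 127, lowest on array 2, and Kl gave 252, 366 and 351, lowest on array 1. The part of these cells in the Foxj1 signal was not tested. Msx1, a homeobox gene of the dorsal midline, gave 445, 514 and 412 in the same order. Msx3 gave 166, 216 and 237, and Msx2 was under threshold, from 9.9 to 13.7.

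Genes listed as factors of thalamus, midbrain, hindbrain and spinal cord were mostly under threshold, 16 of 19 on all arrays. These were En1, En2, Foxa1, Foxa2, Foxb1, Foxb2, Foxd3, Gata3, Lhx1, Lhx3, Lhx9, Lmx1b, Pax2, Pax8, Pitx1 and Pitx3, with signals from 7.6 to 169. En1 and En2, the engrailed genes of the midbrain and hindbrain boundary, gave 41.7, 71.1 and 123, and 85.8, 120 and 81.5. Pitx3, a factor of midbrain dopamine neurons, gave 44.4, 135 and 124. Gata2, which acts in blood progenitors and midbrain GABA neurons, was the only one above on all arrays, at 316, 288 and 316, with 8.1, 10.7 and 5.1 for its second probe set. Pax5, a factor of B cells and the midbrain, gave 337, 172 and 132 with its brighter probe set. Pax3, a neural crest factor, gave 151, 216 and 165.

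Of 26 genes listed as factors of organs outside the brain, 20 were under threshold on all arrays: Foxa3, Foxd4, Foxn1, Gata1, Gata5, Gata6, Nkx1-2, Nkx2-3, Nkx2-5, Nkx2-6, Nkx2-9, Nkx3-2, Pax1, Pax9, Six4, Six5, Six6, Sox15, Tbx3 and Tbx15. Their signals ran from 5.6 to 174. Nkx2-5, the cardiac homeobox gene, gave 29.7, 20.1 and 27.1, and Gata1, the erythroid factor, gave 171, 115 and 112 with its brighter probe set. Gata4, a heart and endoderm factor, gave 321, 176 and 317, and Foxd2 gave 310, 367 and 294, both above on all arrays, though Gata4 lay close to the threshold on array 2. Pax4, a pancreatic islet factor, gave 70.2, 281 and 294, low on array 1. Six2 gave 225, 81.6 and 74.3, Tbx2 124, 183 and 75.9, and Tbx6 283, 112 and 130, each above on 1 array. Tbxas1 and Tbxa2r carry the letters of the T-box genes but encode thromboxane synthase and the thromboxane receptor. Tbxas1 gave 233, 297 and 249, and Tbxa2r gave 152, 119 and 85.8.

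For 35 of the genes more than 1 probe set was present, and in some of them the probe sets gave different answers. In 8 genes one probe set was above threshold on all arrays and another under it on all: Foxk2, Foxm1, Gata2, Hoxa4, Hoxb8, Pou6f1, Sox17 and Tbxas1. The share, 22.9%, compares with 35.5% of 2073 genes on the array with several probe sets. In 2 of the 35, Foxp1 and Sox18, all probe sets passed on all arrays, against 396 of the 2073. In 15 of the 35 all were under threshold throughout, against 450 of the 2073.

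**Figure D4:**
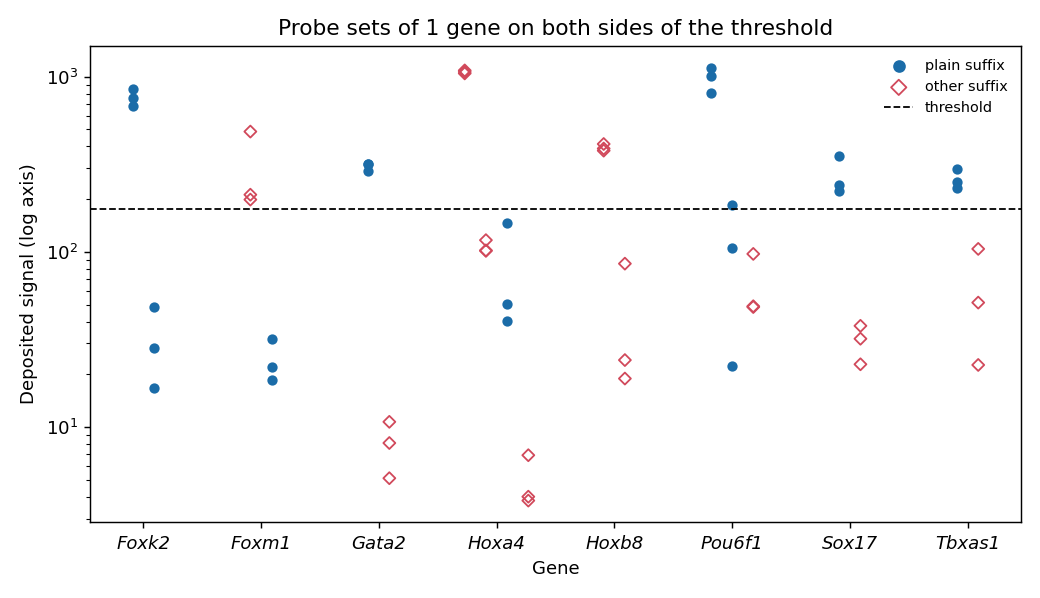
Deposited signal on a log axis for every probe set of the 8 genes whose probe sets fell on both sides of the dashed threshold of 175, with 3 points per probe set for the 3 arrays. In Hoxa4, Hoxb8 and Foxm1 the probe sets above the line are open diamonds (other suffixes), and in the other 5 genes they are filled circles (plain suffix).

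The spread between arrays was taken on the log2 scale over the 38 genes with a mean above threshold, called measured, after scaling arrays to 1 median and raising signals under 47.5 to that value. The highest and lowest array were over 2-fold apart in 9 of the 38 (23.7%), against 10.2% of all measured genes. These were Pax4 (4.31-fold), Pou3f3 (4.18-fold), Sox11 (3.05-fold), Foxj1 (2.95-fold), Foxm1 (2.53-fold), Pax5 (2.49-fold), Sox7 (2.40-fold), Foxp1 (2.21-fold) and Dlx1 (2.02-fold). With the floor at the 40th percentile the same count held, but the log2 range of Pax4 fell from 2.11 to 1.45, under those of Pou3f3 (1.72), Sox11 (1.61) and Foxj1 (1.56). Of the 9, 6 were under threshold on at least 1 array, and a gene that passes through its high arrays alone is bound to vary. Among the 26 genes above on all arrays 3 were over 2-fold apart (11.5%), against 5.87% of all such genes. Among measured genes with a mean up to the 75th percentile of 570.1, where weak signals vary more, it was 9 of 29 (31.0%), against 15.4%. The count was 4 without array 1 and 5 without array 2 or array 3. Leaving out an array can barely widen a range, so a lower count was largely built in. The same counts over all measured genes are not given. Without array 3 the log2 ranges of Sox11, Foxj1 and Foxm1 were 0.45, 0.69 and 0.10. Without array 1 those of Pax4 and Pax5 were 0.11 and 0.34, and without array 2 those of Sox7, Dlx1 and Foxp1 were 0.60, 0.22 and 0.39. The brightest probe set was picked anew each time. Without array 1 Foxp1 switched to its second probe set, with a log2 range of 0.38. Its first probe set had its lowest and highest signals on arrays 2 and 3, at 317 and 677. The count of 4 thus leaves out Foxp1 by a change of probe set. The range of Pou3f3 was 1.02 without array 2. With probe sets averaged per gene, the count was 5. The comparisons within a range of levels were added after the values were seen.

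In the limma variance test, which sets each probe set's variance between arrays against that of others at its level, 0 of the 38 passed an adjusted p of 0.05, where 0.0161% of 6218 measured probe sets did. At an unadjusted p under 0.05 there were 3, Sox11 at 0.033, Foxj1 at 0.038 and Pax4 at 0.043 in limma, against 5.21% of measured probe sets. The lowest limma adjusted p was 0.899, and with a prior that is not robust the counts were also 0 and 3. On simulated data the test rarely called shifts of the size seen here, so a count of 0 says little about whether these genes varied. The median log2 shift of the 38 genes on an array against the mean of the other arrays was 0.01, -0.05 and 0.03 on arrays 1, 2 and 3, and 0.004, -0.06 and 0.06 over all measured genes. Array 2 was lowest for 16 of 38 (42.1%), against 40.7% of measured genes. For 7 of 38 (18.4%), Foxj1, Msx1, Foxd2, Pou3f1, Pou3f3, Sox11 and Sox4, array 2 was highest and array 3 lowest, against 18.7% of measured genes. Both shares lie near the background.

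**Figure D5:**
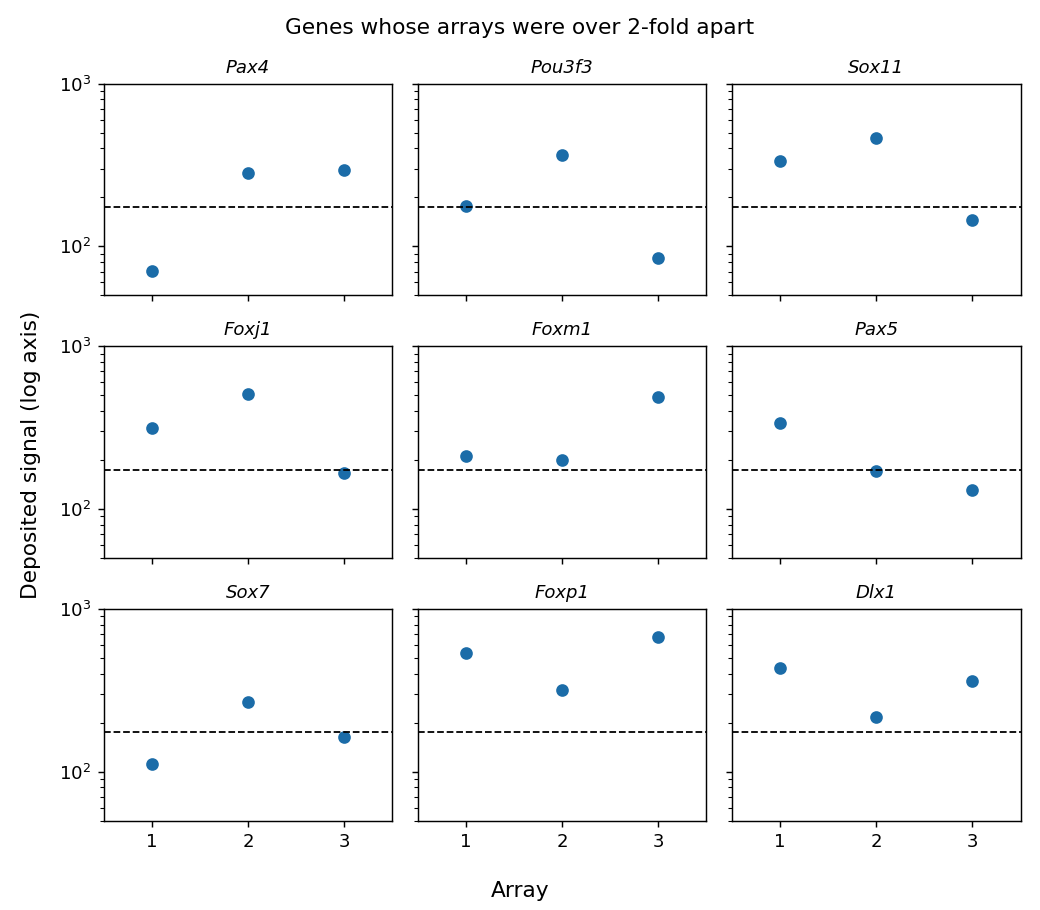
Deposited signal on a log axis for each of the 9 measured genes whose highest and lowest array were over 2-fold apart, 1 panel per gene with the 3 arrays along the horizontal axis and the threshold of 175 dashed. Pou3f3, Sox11 and Foxj1 are highest on array 2 and lowest on array 3, Dlx1 and Foxp1 are lowest on array 2, and Pax4 is low on array 1.

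Other developmental regulators, taken from a list of bHLH, zinc-finger, nuclear receptor and further homeobox genes outside the families, had a share near that of the whole array. Probe sets were present for 52, of which 25 (48.1%) passed on each array, against 52.9% of all named genes, and 23 passed on 0. Neurod2, a bHLH factor of excitatory neurons, gave 1343, 1370 and 1036. Its relatives Neurod1 and Neurod4 gave 156, 198 and 148, and 46.2, 9.6 and 5.6. Zbtb20, which CA1 identity requires, gave 1467, 934 and 1324. In this list 5 of 27 measured genes were over 2-fold apart between arrays, where 10.2% of all measured genes were. In limma 0 passed the variance test, with 4 at an unadjusted p under 0.05, where 5.21% of measured probe sets were.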

How the data were processed

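The deposited values are 1 signal intensity per probe set for each of 3 arrays, linear in scale. The trimmed mean (2% off both ends) was 500.3 on every array, a common scale. The signal program and background correction: not given in the sources used here. Of 12488 probe sets, 10833 had 1 gene symbol in the platform annotation, 396 had several and 1193 had none; 66 were controls. Updating symbols to the GRCm38.p6 gene table changed 0.

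For the spread, arrays were multiplied by 0.991, 0.987 and 1.02 to equalise medians over 6218 measured probe sets, floored at 47.5 (the 25th percentile) and log2-transformed. The variance test, checked on simulated data, used limma 3.58.1 in R 4.3.3 with a robust intensity trend, an upper-tail F test and Benjamini-Hochberg adjustment over measured probe sets. The number of arrays limits the precision.

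Members and gene lists were chosen with earlier results of these data known. All members could be named, and of other genes the first 3 of each list with a probe set and any past the variance test. Zbtb20, Igf2, Kl, Igfbp2, Slc6a13 and the genes in the closing observations were chosen after their values were seen. Alternatives changed the scaling, floor, threshold, probe set, symbols and prior, and left out each array. Leaving out r-suffix probe sets was added after seeing the data.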

Additional observations from a re-analysis of the deposited data

How the results depend on the processing

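Counts followed the threshold. At the 25th percentile 75 genes were above it on all arrays and 47 of 102 measured genes were over 2-fold apart. At the 75th percentile these counts were 8, and 0 of 9. With no threshold 45 of 143 were over 2-fold apart, and 19 passed the limma variance test, where 1375 of 12422 probe sets (11.1%) also passed and 1851 lay at the floor on all arrays. The cause was not tested. Averaging all probe sets of a gene gave 5 over 2-fold apart. Leaving out an array, with the brightest probe set picked anew, gave 4 to 5. In the other settings run, 21 to 32 genes were above threshold on all arrays used (23 without r-suffix probe sets), and limma called 0 past the variance test. Shares over all genes above threshold (plain suffix apart) or over 2-fold apart are not given at these settings. Whether the contrast with the array holds there cannot be read from these counts. Median shifts moved by less than the median SD of the genes. No paired analysis was possible because there is 1 group. Weak signals limit every range that includes a value under threshold.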

Other observations

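Probe sets that name several members were left out of the counts above. One shared by Hoxb7 and Hoxb8, neighbours in the Hoxb cluster, gave 291, 287 and 319 on arrays 1, 2 and 3, above threshold throughout. The probe set of Hoxb7 alone gave 270, 142 and 234, and those of Hoxb8 alone gave 378, 413 and 389, and 85.6, 24.1 and 18.9. Both probe sets shared by Hoxd3 and Hoxd4 were under threshold, at 24.3, 30.4 and 15.0, and 21.0, 120 and 60.0.

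Among developmental regulators outside the families, 4 of 27 measured genes had an unadjusted p under 0.05 in the limma variance test, where 5.21% of all measured probe sets did, and 0 passed after adjustment. Mef2a gave 2953, 2352 and 1119, Mef2c gave 247, 302 and 11.5, and both were lowest on array 3. Tbr1 gave 930.3, 775 and 1607, and Nr2f1 gave 1569, 820.0 and 1739, and both were lowest on array 2 and highest on array 3. In limma the unadjusted p was 0.014 for Mef2a, 0.043 for Mef2c, 0.043 for Tbr1 and 0.031 for Nr2f1, and the adjusted p was 0.760 for Mef2a and 0.899 for the others.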
